A study of Canis lupus familiaris with 2 samples.

Results

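RAB proteins are small GTPases that mark the membranes of the endocytic and secretory pathways, and the RAB genes are described here in MDCK cells, an established dog kidney line of columnar epithelial cells. The members are the rows whose symbol is RAB followed by a number and at most 1 letter, such as RAB5A, so that binding proteins such as RAB11FIP1 are left out. This gave 54 of the 23510 listed features, out of 77 whose symbol begins with RAB. The rule uses names only and no measured value. Unmodified MDCK cells were kept for 3 days on the semipermeable membrane of a two-chamber insert, 1 culture under 2-cm-high medium, the unloaded control, and 1 culture under 50-cm-high medium, and their mRNA was sequenced. The only difference named between the groups is the medium height, which sets the static water pressure in cm of water (2 or 50). Each group therefore had 1 library, and no replicate error, no test and no p-value exist for any value below.

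A RAB protein carries a lipid tail that holds it on a membrane, and it is active when bound to GTP. Exchange factors load it with GTP, GTPase activating proteins switch it off, and GDP dissociation inhibitors return it to the cytosol. While active it recruits effectors, such as tethers and motor adaptors, that move, dock or fuse vesicles. In columnar epithelia this traffic sorts proteins to the apical or the basolateral surface, and MDCK cells are a standard model for it. Members were placed by textbook knowledge into 4 classes, namely endocytic (13 genes), recycling (10), secretory, meaning delivery to the surface and granule exocytosis (12), and ER and Golgi (11), and the remaining 8 genes were grouped as other.

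Values are FPKM, fragments on a gene divided by its exon length and by the number of mapped fragments, as the authors deposited them, so levels may be compared between genes per length. A ratio is the 50-cm over the 2-cm FPKM, computed where both exceed 1 FPKM, which left 11057 features and 45 of the 54 RAB genes. Summed FPKM over all features was 600496 in the 2-cm culture and 614100 in the 50-cm culture. Read numbers are not given, so no counting interval could be set on a value. Of the 574 features with values under 0.1 FPKM in each library, 219 shared a ratio of 1.10 within 0.2%. Equal read numbers in the libraries, such as 1 in each, would give such a shared ratio. If so, 1 read stood for 9.77% more FPKM under 50-cm-high medium. For single genes, log2 ratios are also given in multiples of the scaled median absolute deviation (MAD) among the 500 features of most similar expression, a spread across genes and not replicate error. Kidney epithelial markers were expressed, with 13 of 14 analysed above 1 FPKM in both cultures and a summed level of 5863 and 5495 FPKM. The exception was CDH16, kidney cadherin, at 1.96 and 0.676 FPKM. Of 9 fibroblast markers only FBLN1 (54.8 and 52.4 FPKM) passed 1 FPKM in both, and COL3A1, DCN, LUM and THY1 were listed at 0 in both. Of 7 immune markers none was above 4.82 FPKM, with PTPRC listed at 0, and of 8 endothelial markers none did. A listed 0 is not proof of absence, since ATP5O, an ATP synthase subunit that every cell uses, was at 0 in both cultures.

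The RAB genes kept close to their levels under the higher medium. None of the 45 genes above 1 FPKM differed by more than 2-fold, where 1.67% of all features did (0.389% higher and 1.28% lower in 50-cm-high medium). Past 1.5-fold there were 2 RAB genes, RAB17 and RAB30, both lower, beside 7.19% of all features (2.13% higher and 5.06% lower). In contrast, 37 of the 45 (82.2%) lay within 1.2-fold, compared with 68.1% of all features. The median log2 ratio of the 45 genes was 0.01, like the 0.01 of all features, and its sign turned under 3 of the scalings tried. With 24 genes higher and 21 lower (19 and 26 under rescaling to a common sum), the family had no common direction. Summed over all members the RAB genes reached 2303 FPKM in the 2-cm culture and 2334 FPKM in the 50-cm culture, 0.384% and 0.380% of all FPKM. These are bulk libraries, so a smaller share of cells that express a gene and less of its RNA per cell cannot be told apart.

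**Figure D1:**
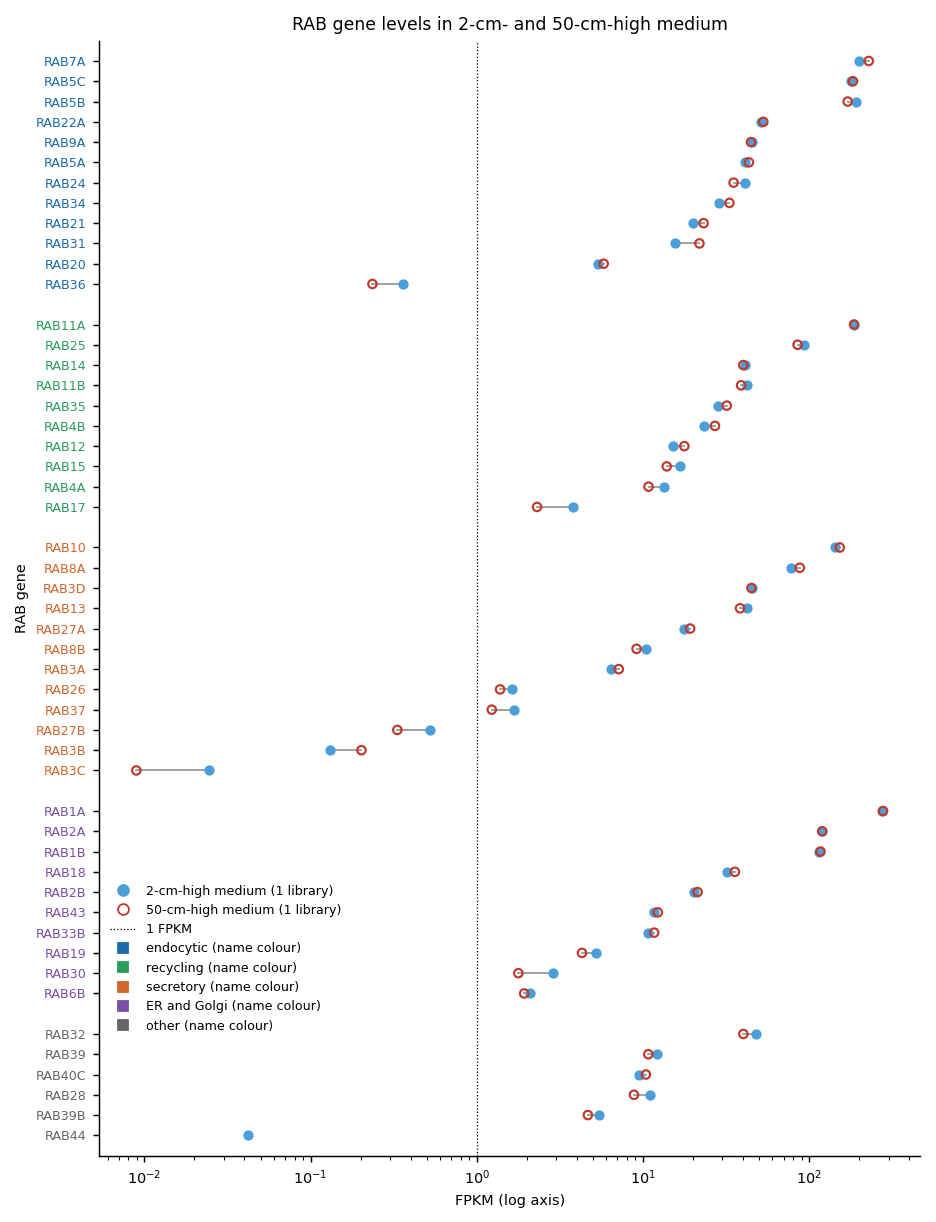
FPKM (log axis) of each RAB gene in the culture under 2-cm-high medium (filled) and under 50-cm-high medium (open), 1 library each, with genes sorted by mean level within their class and the dotted line at 1 FPKM. The pairs of points nearly coincide for the abundant genes, from RAB1A at 273 and 278 FPKM downward, and part visibly for RAB17, RAB30, RAB31 and the genes under 1 FPKM. RAB9B, RAB33A, RAB38 and RAB42, at 0 in both, are not drawn, and RAB44 has a value only in the 2-cm culture.

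A few genes carried most of the RAB RNA. RAB1A, which acts in transport from the endoplasmic reticulum (ER) to the Golgi, was the most abundant in both cultures. It was followed by RAB7A of late endosomes, RAB5B and RAB5C of early endosomes and RAB11A of recycling endosomes. These 5 genes made up 44.7% of the summed RAB FPKM in the 2-cm culture and 44.8% in the 50-cm culture, and the first 10 genes 68.4% and 68.8%. The 10 most abundant members were the same genes in both cultures. Within them RAB5B passed from rank 3 to rank 5. The endocytic class held 35.6% of the RAB sum in 2-cm-high and 36.0% in 50-cm-high medium, the ER and Golgi class 25.7% and 25.8%, the recycling class 20.1% and 19.4%, and the secretory class 15.0% and 15.5%.

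Among the endocytic genes, 8 were higher and 3 lower in 50-cm-high medium, with ratios from 0.853 to 1.396. Features between 20 and 100 FPKM also leaned higher, with 37.7% of them lower. RAB31, a relative of RAB5 that works between the trans-Golgi network and endosomes, had the highest ratio of the whole family. Its level was 15.6 FPKM under 2-cm-high medium and 21.8 FPKM under 50-cm-high medium, a log2 ratio of 0.48, or 2.42 MADs of its neighbours. No other member lay as many MADs from 0. RAB7A, which drives fusion and transport of late endosomes and lysosomes, had 200.1 and 228 FPKM, 13.9% more in the 50-cm culture and the largest difference of any member in FPKM (27.9). RAB34, linked to lysosome position and macropinosomes, had 28.5 and 33.1 FPKM (log2 ratio 0.21). RAB21, which handles integrins at early endosomes, stood at 20.1 and 23.1 FPKM (log2 ratio 0.20). Both lay about 1 MAD from 0 (1.03 and 1.02).

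The early endosome genes of the RAB5 group, whose products promote endosome fusion, did not share a direction. RAB5A had 41.3 FPKM in the 2-cm culture and 43.3 FPKM in the 50-cm culture, and RAB5C had 179 and 183 FPKM, although its ratio of 1.02 turned below 1 under rescaling to a common sum and under quantile normalization. RAB5B, by contrast, had 191 and 170 FPKM (ratio 0.891), so that RAB5C overtook it in the 50-cm culture. RAB22A, another early endosome gene, had 51.2 and 52.9 FPKM, RAB20, of maturing endosomes, 5.33 and 5.79 FPKM, and RAB9A, of the route from late endosomes to the trans-Golgi network, 45.4 and 44.6 FPKM. The lowest ratio of the class was that of RAB24, an atypical member linked to autophagy, with 41.1 and 35.03 FPKM (log2 ratio -0.23, -1.15 MADs). RAB36, a relative of RAB34, stayed below 1 FPKM at 0.357 and 0.235. Its ratio was that of 3 reads against 5 within 0.2%, so it may rest on such numbers or on multiples of them. RAB9B was listed at 0 in both cultures.

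All 10 recycling genes passed 1 FPKM, and 6 of them were lower and 4 higher in 50-cm-high medium. RAB17, an epithelial RAB of apical recycling endosomes, had the lowest ratio of all 45 genes. It had 3.81 FPKM in the 2-cm culture and 2.30 FPKM in the 50-cm culture, a ratio of 0.604 (log2 -0.73, -1.79 MADs). Features at its low level spread widely, with a MAD of 0.41 on the log2 scale compared with 0.17 at the level of RAB11A. RAB25, the epithelial relative of RAB11 and likewise tied to apical recycling, was 24.5 times as abundant as RAB17 in the 2-cm culture. It had 93.4 and 85.1 FPKM (log2 ratio -0.13). RAB11A, the general recycling endosome gene, was the steadiest member at 185.8 and 185.8 FPKM (ratio 1.0003, below 1 under 3 scalings), and RAB11B had 42.3 and 38.9 FPKM (log2 ratio -0.12).

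The fast recycling genes RAB4A and RAB4B, whose products return receptors from early endosomes to the surface, differed in direction. RAB4A had 13.3 FPKM under 2-cm-high and 10.8 FPKM under 50-cm-high medium (log2 ratio -0.30, -1.37 MADs). RAB4B had 23.2 and 27.1 FPKM (log2 ratio 0.22, 1.02 MADs). RAB35, a fast recycling RAB at the plasma membrane, had 28.2 and 31.9 FPKM. RAB12, of transport from recycling endosomes to lysosomes, had the highest ratio of the class, 1.18, with 15.1 and 17.7 FPKM. RAB15 had 16.8 and 13.9 FPKM (log2 ratio -0.27), and RAB14, which links endosomes and the Golgi, 41.2 and 40.1 FPKM.

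In the secretory class, 9 of 12 genes passed 1 FPKM, with 4 higher and 5 lower in 50-cm-high medium (5 and 4 under quantile normalization) and ratios from 0.733 to 1.14. The abundant genes were those of constitutive delivery to the surface. RAB10, of basolateral delivery, led with 142 FPKM in the 2-cm culture and 152 FPKM in the 50-cm culture. RAB8A, of post-Golgi delivery and the primary cilium, had 77.1 and 87.7 FPKM (log2 ratio 0.19, 0.92 MADs), the highest ratio of the class. Its close relative RAB8B was rarer, at 10.4 and 9.14 FPKM, and lay on the other side of 0 (log2 ratio -0.19). RAB13, which brings proteins to tight junctions, had 41.9 and 38.3 FPKM (log2 ratio -0.13).

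The genes of regulated exocytosis were led by RAB3D, of secretory granules, at 45.1 and 44.9 FPKM. RAB27A, which docks granules and multivesicular bodies at the plasma membrane, had 17.6 and 19.2 FPKM, and RAB3A, best known from synaptic vesicles, 6.46 and 7.14 FPKM. RAB26 and RAB37, both of granule exocytosis, stood just above the limit of 1 FPKM. RAB37 was nearest to it, with 1.68 FPKM in the 2-cm culture and 1.23 FPKM in the 50-cm culture, and had the lowest ratio of the class (0.733, -1.08 MADs). RAB26 had 1.63 and 1.38 FPKM. The nearest gene below the limit was RAB27B, at 0.524 and 0.332 FPKM. RAB3B had 0.131 and 0.202 FPKM. Neither RAB27B nor RAB3B matched a ratio of up to 10 reads in each culture within 0.2%. RAB3C, at 0.0245 and 0.00894 FPKM, was the only RAB gene with values in both cultures and a ratio below 0.5 (0.366), which equals 1 read against 3 within 0.2%, though not within the 0.05% applied first.

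The most abundant genes of the ER and Golgi class had ratios close to 1. RAB1A had 273 FPKM in the 2-cm culture and 278 FPKM in the 50-cm culture, RAB1B 115 and 117 FPKM, and RAB2A, of the intermediate compartment between ER and Golgi, 119 and 120 FPKM, with ratios between 1.01 and 1.02. Under rescaling to a common sum and under quantile normalization these small differences changed sign. RAB2B had 20.1 and 21.3 FPKM, RAB43 11.7 and 12.3 FPKM, and RAB33B, of the Golgi and the autophagosome, 10.8 and 11.7 FPKM. RAB18, of the ER and lipid droplets, had the highest ratio of the class with 32.0 and 35.7 FPKM (log2 ratio 0.16). As deposited 7 genes were higher and 3 lower, but 4 higher and 6 lower under rescaling to a common sum. The 3 lower genes were the rarest of the class above 1 FPKM. RAB30, a Golgi RAB, had 2.86 and 1.78 FPKM (ratio 0.621, log2 -0.69, -1.51 MADs), RAB19 5.21 and 4.29 FPKM and RAB6B 2.08 and 1.93 FPKM. RAB33A was at 0 in both.

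Of the 8 other genes, 5 passed 1 FPKM and 4 of these were lower in 50-cm-high medium. RAB32, of lysosome-related organelles, had 47.7 and 40.1 FPKM (log2 ratio -0.25, -1.37 MADs), and RAB28, a ciliary RAB, 10.96 and 8.81 FPKM (log2 ratio -0.31, -1.28 MADs). The feature listed as RAB39 had 12.2 and 10.7 FPKM, and RAB39B 5.42 and 4.66 FPKM. RAB40C, which carries a SOCS box and serves a ubiquitin ligase, was the exception at 9.44 and 10.4 FPKM. RAB38 and RAB42 were listed at 0 in both cultures. RAB44 had 0.0419 FPKM in the 2-cm culture and was listed at 0 in the 50-cm culture.

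**Figure D2:**
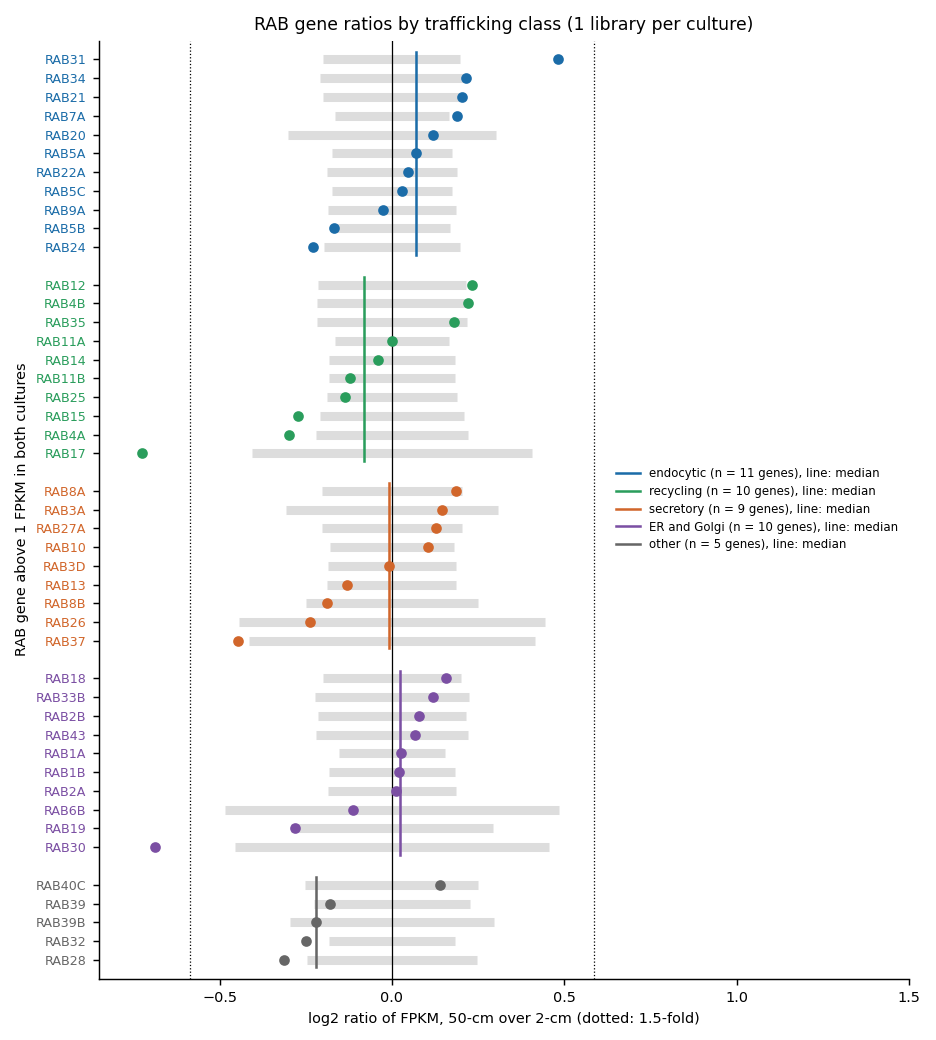
Log2 ratio of FPKM (50-cm over 2-cm) of the 45 RAB genes above 1 FPKM in both cultures, by class, 1 library per culture. Points are genes, coloured lines are class medians, grey bars reach 1 scaled MAD of the 500 features nearest in expression to either side of 0, and dotted lines mark 1.5-fold. Only RAB17 and RAB30 lie beyond a dotted line. In multiples of its grey bar RAB31 lies farthest from 0 (2.42 MADs).

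The classes were set side by side to see whether endocytic, recycling and secretory genes differed between the medium heights. The median log2 ratio was 0.07 for the endocytic genes (11 genes), -0.08 for the recycling genes (10), -0.01 for the secretory genes (9) and 0.02 for the ER and Golgi genes (10). The SD across the genes of a class ran from 0.19 to 0.29. The endocytic median stayed above 0 and the recycling median below 0 under every alternative tried. However, the endocytic genes had a median level of 41.3 FPKM in the 2-cm culture, and features of such levels also tended higher. The median log2 ratio of all features was 0.06 between 20 and 100 FPKM and 0.07 at 100 FPKM and above. The endocytic median was thus like that of features of similar level. The recycling genes had a median level of 25.7 FPKM in the 2-cm culture, with members from 3.81 to 186 FPKM. Their median of -0.08 lay below the 0.06 of features between 20 and 100 FPKM. What sets the recycling median apart was not tested. The ER and Golgi median turned to -0.01 under rescaling to a common sum. The secretory median turned to 0.10 above 5 FPKM, to 0.02 when pooled with the ER and Golgi genes and to 0.003 under quantile normalization. Summed levels differed by a few percent. From the 2-cm to the 50-cm culture the endocytic sum went from 819 to 841 FPKM (2.68% more), the recycling sum from 463 to 453 FPKM (2.07% less), the secretory sum from 344 to 362 FPKM (5.10% more) and the ER and Golgi sum from 591 to 603 FPKM (2.03% more). The secretory median and sum thus differ in sign, the sum being set by RAB10 and RAB8A. No difference between classes could be tested with 1 library per culture.

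**Figure D3:**
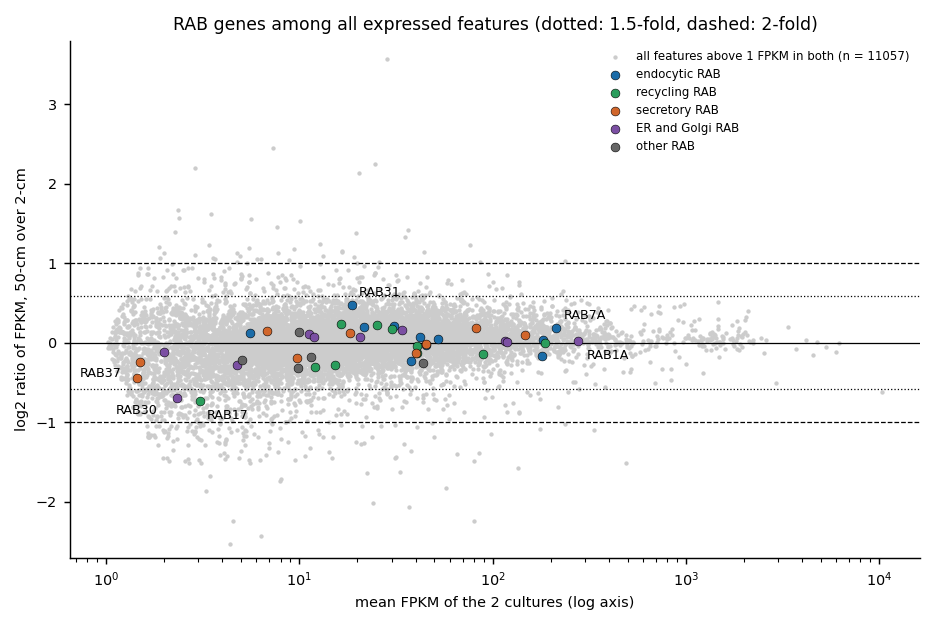
Log2 ratio of FPKM (50-cm over 2-cm) against the mean FPKM of the cultures (log axis) for 11057 features above 1 FPKM in both (grey) and for the RAB genes (coloured by class), with dotted lines at 1.5-fold and dashed lines at 2-fold. The RAB genes at 20 FPKM and more lie in a narrow band around 0, and the 6 genes between 1 and 5 FPKM all lie below 0 with the values as deposited.

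The size and direction of the ratios went with the level of the gene. At a mean of 100 FPKM and above, all 8 RAB genes lay within 1.2-fold, as did 79.2% of the 968 features of that level. Between 20 and 100 FPKM all 17 did, compared with 75.2% of 3812 features. From 5 to 20 FPKM it was 10 of 14, against 69.0% of 4227 features, and RAB31, RAB28, RAB4A and RAB15 were the exceptions. Between 1 and 5 FPKM only 2 of 6 did, and 47.9% of 2050 features. All of these 6 rare genes (RAB17, RAB30, RAB37, RAB19, RAB26 and RAB6B) were lower in 50-cm-high medium, with a median log2 ratio of -0.36. Features of that level also tended lower, with 63.9% of them below a ratio of 1 and a median of -0.14. Abundant features tended higher, with 37.7% below a ratio of 1 between 20 and 100 FPKM and 32.6% at 100 FPKM and above. Under quantile normalization RAB6B changed sign (log2 ratio 0.12), and RAB17 and RAB30 did not reach 1.5-fold, at -0.56 and -0.49.

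**Figure D4:**
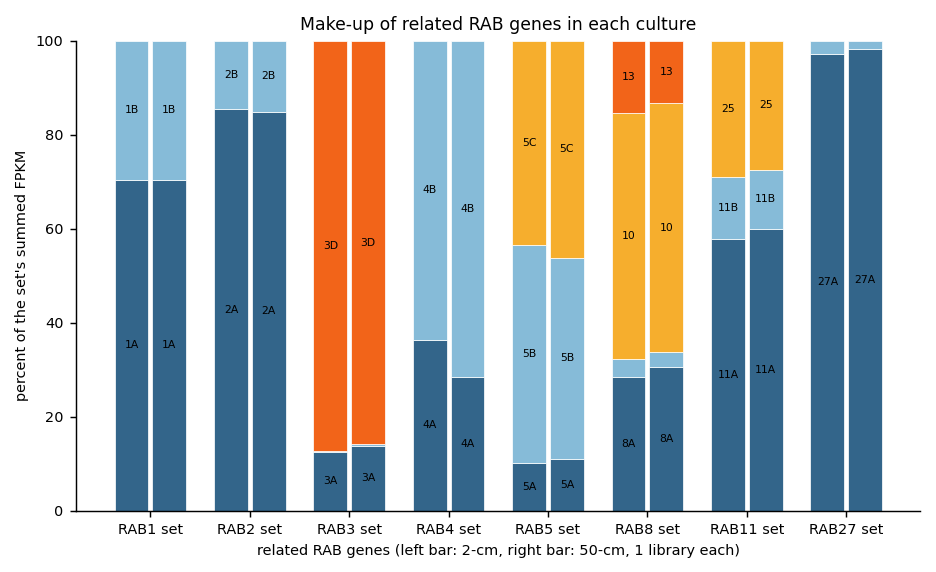
Make-up of 8 sets of related RAB genes as percent of the summed FPKM of the set, in 2-cm-high (left bar) and 50-cm-high medium (right bar), 1 library each; labels in the bars give the gene without RAB. The bars of a pair look nearly alike, with the RAB4 pair showing the widest shift, from 63.6% to 71.5% for RAB4B.

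Related genes often cover the same step, so their balance was also compared. RAB1A made up 70.3% of the RAB1 pair in the 2-cm culture and 70.4% in the 50-cm culture, and RAB2A 85.5% and 84.9% of the RAB2 pair. RAB11A held 57.8% and 60.0% of the sum with RAB11B and RAB25, while RAB25 held 29.0% and 27.5%. In the RAB3 set RAB3D accounted for 87.2% and 85.9%, and in the RAB27 pair RAB27A for 97.1% and 98.3%. The RAB5 set shifted from 46.4% to 42.9% for RAB5B and from 43.6% to 46.2% for RAB5C. RAB4B passed from 63.6% to 71.5% of the RAB4 pair, the widest shift of the sets at 7.89 percentage points. Reads of such near relatives can be shared by the mapping, and how the counting divided them is not given in the sources used here.

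The genes that run the RAB cycle were followed in 7 lists, 165 genes in all, of which 149 passed 1 FPKM in both cultures. None of them differed by more than 2-fold, and 7 (4.70%) passed 1.5-fold, 1 higher and 6 lower in 50-cm-high medium. For comparison, 7.19% of all features passed 1.5-fold. The median log2 ratio of the 149 genes was -0.07, beside 0.01 for all features. Of the 149 genes 94 were lower and 55 higher, and of all 11057 features 5236 were lower and 5820 higher. Among all features the share lower was 63.9% between 1 and 5 FPKM and 37.7% between 20 and 100 FPKM.

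Genes of prenylation and membrane recovery had the highest median of the 7 lists, a log2 ratio of 0.19 with 5 of 8 genes higher. That split was like the one of abundant features, of which 37.7% were lower between 20 and 100 FPKM and 32.6% at 100 FPKM and above. The median of 0.19 was higher than the medians of those features, 0.06 and 0.07. CHM in both cultures and RABGGTA in the 2-cm culture lay below 20 FPKM. GDI2, which extracts RAB proteins from membranes, had 212 FPKM in the 2-cm culture and 260 FPKM in the 50-cm culture. RABGGTA and RABGGTB, the subunits of the transferase that attaches the lipid tails, had 16.0 and 20.2 FPKM and 52.6 and 61.1 FPKM, respectively. The escort proteins CHM (8.32 and 6.93 FPKM) and CHML (22.2 and 19.5 FPKM) lay in the opposite direction. None of the 8 genes passed 1.5-fold, and the median stayed above 0 under each scaling tried.

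The exchange factors (34 genes, median log2 ratio -0.07) and the GTPase activators (34 genes, median -0.08) held 5 of the 7 genes past 1.5-fold. DENND2C, an exchange factor, was the single higher one, with 5.075 and 7.99 FPKM (ratio 1.57, 2.18 MADs). DENND2D (2.57 and 1.51 FPKM) and DENND1C (5.13 and 3.13 FPKM), of the same DENN domain family, were lower. Among the activators, TBC1D7 had 23.9 and 15.6 FPKM (ratio 0.652, -3.18 MADs), the farthest from 0 in MADs of all genes of the cycle, and SGSM2 had 10.7 and 7.08 FPKM. TBC1D7 is also a subunit of the TSC complex that restrains mTORC1. Of the activators, 25 were lower and 9 higher, compared with 5236 lower and 5820 higher among all features.

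The effector lists differed in their medians. Secretory effectors had the lowest, a log2 ratio of -0.22 with 16 of 22 genes lower, and it stayed between -0.16 and -0.25 under each pseudocount and scaling tried. SYTL1, SYTL4, SYTL5, MLPH, RPH3AL and RIMS2 of this list had a mean between 1 and 5 FPKM, where 63.9% of all features were lower. The other genes of the list were more abundant. They include the exocyst, the complex that tethers secretory vesicles to the plasma membrane. Of its 9 genes 7 were lower (ratios from 0.648 to 1.04), and the median log2 ratio of the 9 was -0.16. EXOC6 had 8.87 FPKM in the 2-cm culture and 5.75 FPKM in the 50-cm culture (-2.14 MADs) and alone passed 1.5-fold. EXOC2 (15.2 and 12.4 FPKM), EXOC4 (26.5 and 22.1 FPKM) and EXOC7 (27.3 and 22.9 FPKM) had ratios of 0.816 to 0.838. The number of lower exocyst genes was 6 under quantile normalization and 8 under median centring. At the levels of the exocyst genes, 51.4% of all features were lower between 5 and 20 FPKM and 37.7% between 20 and 100 FPKM.

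Recycling effectors had a median log2 ratio of 0.07, with 9 of 15 genes higher. EHD1, which shapes recycling tubules, had 42.6 and 56.9 FPKM (ratio 1.34, 2.12 MADs), and RAB11FIP1, an adaptor of RAB11 and RAB25, 71.0 and 83.4 FPKM. RAB11FIP4 was the only one of the 15 past 1.5-fold, with 4.79 and 2.93 FPKM (ratio 0.611). MYO5C of the same list is not among the 15, since it fell from 1.26 FPKM to 0.221 FPKM, below the limit. Endocytic effectors, among them the tether EEA1 (20.4 and 18.5 FPKM), had a median of -0.07 with 16 of 21 lower. Of these effectors 90.5% lay within 1.2-fold, compared with 68.1% of all features and 71.8% of the 149 genes of the cycle. The share was lowest for the exchange factors (55.9%) and the secretory effectors (59.1%). FYCO1, a RAB7 effector that links late endosomes to kinesin, was the lowest at 8.87 and 6.71 FPKM, followed by the RAB5 effector APPL2 at 5.44 and 4.52 FPKM. The ER and Golgi effectors had a median of -0.01, from GOLGA2 (30.5 and 26.5 FPKM) to the dynein adaptor BICD2 (12.8 and 16.9 FPKM).

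**Figure D5:**
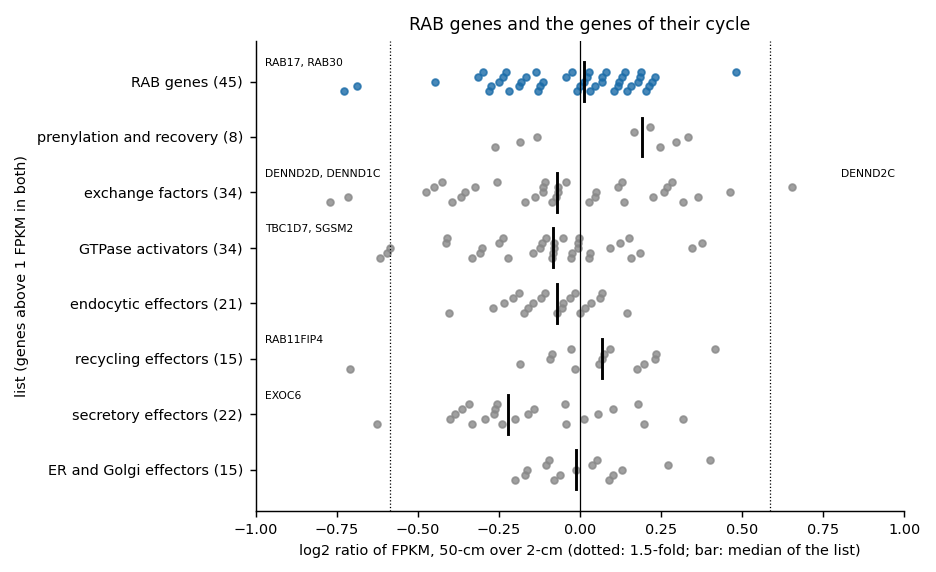
Log2 ratio of FPKM (50-cm over 2-cm, 1 library each) of the RAB genes and of 7 lists of genes of the RAB cycle, for genes above 1 FPKM in both cultures. Points are genes, bars are list medians, dotted lines mark 1.5-fold and the genes beyond them are named at the sides. The secretory effectors have the lowest median (-0.22), and prenylation and recovery the highest (0.19).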

How the data were processed

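Total RNA of MDCK cells from 1 culture in 2-cm-high and 1 in 50-cm-high medium was made into stranded mRNA libraries and read in 75-base single-end mode. The authors used SAMtools 0.1.19, TopHat 2.0.13 and Bowtie 2 2.2.3 for mapping, with CanFam3.1 as the reference. The deposited FPKM values came from Cuffnorm 2.2.1, run by the authors. The annotation, the strand setting and the scaling method are not given in the sources used here, so reads of overlapping or antisense genes may be included. FPKM is relative, so abundant genes shift the others, and read depth is not recorded.

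Ratios had no pseudocount and required more than 1 FPKM in each culture. Members and all features past 2-fold, past 1.5-fold and within 1.2-fold were counted, the 1.2-fold limit being set after the data were seen. It replaced a wider limit (a ratio of 5 to 4), whose counts were known by then, for a reason of presentation. The tolerance for matching read ratios of rare genes was widened from 0.05% to 0.2% after their values were seen. With 1 library per group no test was run. Named genes were, by rule, the highest and lowest ratio and the 2 most abundant of each class, those past 1.5-fold, those at 0 or nearest 1 FPKM, and sets of relatives. Others were named after their values were seen. The members and lists were chosen with earlier results of these data known, and RAB39 was placed in a class after the files were seen. Of 54 member symbols, 53 matched RefSeq (assembly UU_Cfam_GSD_1.0, a build other than that of the files), so positions are not given. RAB6A, RAB7B, RAB23 and RAB40B were among the RefSeq symbols with no listed feature of that name. The sums, ranks and shares of the RAB genes therefore do not include them. Some single genes of the marker and partner lists, counted in the list summaries, are not reported here. Alternatives were a pseudocount of 0.1 or 1, other FPKM minima, median centring, rescaling to a common sum, quantile normalization and other class borders. Scripts were tested on simulated data. The work used matplotlib 3.10.9, pandas 2.3.3 and numpy 2.4.6 under Python 3.11.15.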

Additional observations from a re-analysis of the deposited data

How the results depend on the processing

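The 67 recomputed summary values were counts past a fold, which have no sign, and medians, of which 7 changed sign, all near 0 as deposited. Of 165 recomputed single-gene log2 ratios 13 changed sign, all under another scaling. The others include those with a pseudocount, which cannot turn the sign of a ratio, so these totals do not measure how stable directions are. The number of RAB genes past 2-fold was 0, but 1 (RAB3C) when any value above 0 was accepted. Past 1.5-fold there were 2 RAB genes, but 5 above 0.1 FPKM, 6 above 0 FPKM, and 0 above 5 FPKM, with a pseudocount of 1 or under quantile normalization. The genes of the RAB cycle past 1.5-fold numbered 7, but 13 above 0.1 FPKM, 14 above 0 FPKM, 4 above 5 FPKM, 1 with a pseudocount of 1 and 3 under quantile normalization. Medians of the log2 ratio ranged from -0.05 to 0.04 for all RAB genes, 0.01 to 0.07 for the endocytic, -0.14 to -0.04 for the recycling, -0.07 to 0.10 for the secretory and -0.01 to 0.07 for the ER and Golgi genes. The counts past 1.5-fold thus rest on the FPKM minimum and the scaling, since RAB17 and RAB30 lie under 5 FPKM. Within a ratio of 5 to 4, the limit computed before the 1.2-fold one, lay 41 of the 45 RAB genes (91.1%) and 76.1% of all features. No paired analysis was possible because each group has 1 library.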

Other observations

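Some genes of the RAB cycle crossed the limit of 1 FPKM between the cultures and so had no ratio above. MYO5C, an unconventional myosin counted here among the recycling effectors, had 1.26 FPKM in the 2-cm culture and 0.221 FPKM in the 50-cm culture. RILP, which ties RAB7 to dynein, had 0.682 and 1.28 FPKM. EXPH5, an effector of RAB27, had 1.25 and 0.685 FPKM, and the exchange factor RIN3 1.45 and 0.952 FPKM. No replicate was available for any of them. Of the 28 secretory effectors, SYTL3, MYRIP and RIMS1 were listed at 0 in both cultures, as were 7740 of all 23510 features.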
